A study of Mus musculus with 3 samples.

Results

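The C/EBP transcription factors examined here are 4 genes, *Cebpa*, *Cebpb*, *Cebpd* and *Cebpg*, out of the 32285 genes counted in 3 single-cell RNA libraries of tumour dendritic cells. They were chosen by measured values, namely their raw UMI counts in each library, in each deposited cluster of cDC1s and in other cell types of the same libraries, to see which differences between libraries reach every cell type. The levels and library differences of these genes are therefore given as a description, without a test. C/EBP proteins are basic leucine zipper (bZIP) factors that bind DNA as dimers, with each other or with other bZIP proteins. C/EBPα and C/EBPβ are best known from myeloid cells, where the first is needed for granulocyte and monocyte development and the second is induced by inflammatory signals and takes part in cytokine gene expression and macrophage activation. C/EBPδ is also induced in inflammation, and C/EBPγ lacks an activation domain and acts through its dimer partners.

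The study compared tumour cDCs from mice that differ in secreted gelsolin (sGSN) and in DNGR-1, the receptor for dead cell debris that *Clec9a* encodes. All mice were on a C57BL/6J background, of both sexes and 6 to 20 weeks old, and carried subcutaneous MCA205 LA-OVA tumours, a fibrosarcoma line expressing the model antigen OVA, on both flanks until harvest on day 5. The WT group was a pool of 25 males and 12 females, the sGSN-/- group of 15 males and 16 females, and the sGSN-/-Clec9a-/- group, which lacks both, of 10 males and 17 females. Pre-cDCs, cDC1s and cDC2s were sorted from each pool as CD45+ CD11c+ MHCII+ CD88- cells without lineage markers (among them CD3e, B220, Ly6G and NK1.1), mixed, and loaded as 1 droplet library per genotype. No genotype has a replicate library, so genotype, pool, sort and library cannot be told apart. The word library is used below for each of the 3 groups.

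The WT library held 12763 barcodes with 176578136 UMIs, the sGSN-/- library 8173 with 109270958, and the sGSN-/-Clec9a-/- library 9273 with 113411930. A deposited table assigned 5806 barcodes to 12 clusters of cDC1s, numbered 0 to 11, of which 2316 were in the WT, 1712 in the sGSN-/- and 1778 in the sGSN-/-Clec9a-/- library. Of the 24403 barcodes outside the table, 1265 were left out for few genes or a high mitochondrial share. The others were divided by single genes. A barcode with at least 3 UMIs of *Cd209a*, *C1qa* or *Ncr1*, and at most 1 UMI of each of the other 2, made up the Cd209a class (5016 barcodes), the C1qa class (3252) and the Ncr1 class (1940). These classes are named by their gating gene. The 8 macrophage markers summed to 10695, 10198 and 9296.6 UMIs scaled to the total (CPM) in the C1qa class of the WT, sGSN-/- and sGSN-/-Clec9a-/- libraries, led by *C1qb*, against 76.5, 55.4 and 50.7 in the Ncr1 class. The 7 NK cell markers summed to 5478.3, 5907.1 and 6774.0 CPM in the Ncr1 class, led by *Gzma*, although NK1.1 was among the sorted-out markers. The 7 cDC2 markers summed to 2242.3, 2212.3 and 2176.4 CPM in the Cd209a class, led by the gating gene itself. The C1qa class also carried cDC2 markers, at 946.3, 993.9 and 914.8 CPM, led by *Mgl2*, and monocyte markers were higher still. The 6 on that list summed to 1836.5, 2029.9 and 2172.7 CPM in the C1qa class, led by *Fn1*, to 1406.3, 1715.1 and 1721.6 in the Cd209a class, led by *Plac8*, and to 659.7, 611.2 and 701.8 in the Ncr1 class. All 6 were detected in each class, with *Vcan* and *Chil3* at 0 in some libraries of the Ncr1 class. The 7 cDC1 markers, *Clec9a* among them, summed to 515.0, 647.2 and 641.5 CPM in the Cd209a class. They summed to 444.3, 497.7 and 582.8 in the C1qa class, both led by *Naaa*, and to 781.1, 896.7 and 828.9 in the Ncr1 class, led by *Irf8*. Another 12930 barcodes met no gate.

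The labels were checked on the targeted genes. *Clec9a* gave 5502 UMIs in WT cDC1s, 3970 in sGSN-/- cDC1s and 2 in sGSN-/-Clec9a-/- cDC1s. *Gsn* was at 151.5, 169.4 and 166.5 CPM in the same cells, and since the counts do not separate the secreted form's transcripts from the others, it does not check the sGSN-/- label. The libraries shared few barcodes, 26 between WT and sGSN-/-, 28 between WT and sGSN-/-Clec9a-/-, and 27 between the last pair. Sex transcripts did not follow the order of the pools by sex. Of the cDC1s that held either *Xist* or Y-linked transcripts, the Y-linked group made up 19.3% (exact 95% interval 17.6 to 21.1) in WT, 36.3% (33.8 to 38.8) in sGSN-/- and 23.6% (21.4 to 25.8) in sGSN-/-Clec9a-/-, while males made up 67.6%, 48.4% and 37.0% of the mice. The sGSN-/-Clec9a-/- library also stood apart in some abundant transcripts. *Gm42418*, a gene that overlaps ribosomal RNA repeats, was at 11291 CPM in WT cDC1s, 11162 in sGSN-/- and 21459 in sGSN-/-Clec9a-/-, and mitochondrial genes took 1.65%, 1.75% and 2.02% of the UMIs.

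*Cebpb* was lower in the sGSN-/-Clec9a-/- library than in either other library in all 14 cell groups compared, which were cDC1 clusters 0 to 10 and the 3 classes. In all cDC1s it was counted at 75.0 CPM in WT (exact Poisson 95% interval 72.1 to 78.0, for counting error only, as all intervals of libraries here), 60.9 in sGSN-/- (57.7 to 64.1) and 18.7 in sGSN-/-Clec9a-/- (16.9 to 20.6). The C1qa class gave 596.2, 457.3 and 153.7 CPM in the same order. The Cd209a class gave 189.4, 141.3 and 68.1 CPM. The Ncr1 class gave 149.3, 124.8 and 34.7 CPM. In each of these 4 groups the WT library was the highest and the sGSN-/-Clec9a-/- library the lowest, and no 2 intervals overlapped. The 12930 ungated barcodes, a mixed group not counted among the 14, had the same order, with 282.8, 185.6 and 84.7 CPM.

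As a ratio of sGSN-/-Clec9a-/- over sGSN-/-, *Cebpb* stood at a log2 value of -1.70 (-1.87 to -1.54) in cDC1s, -1.05 (-1.15 to -0.96) in the Cd209a class, -1.57 (-1.64 to -1.51) in the C1qa class and -1.85 (-2.06 to -1.64) in the Ncr1 class. The Cd209a class had the value nearest 0 of these 4. Markers of other cell types differed between the libraries there. The 8 macrophage markers had sums of 331.5, 272.8 and 363.7 CPM in WT, sGSN-/- and sGSN-/-Clec9a-/-, led by *Csf1r* and none at 0. *Apoe* went from 37.7 CPM in sGSN-/- to 82.9 in sGSN-/-Clec9a-/-, *Adgre1* from 7.14 to 12.7 and *Lyz2*, which is not on that list, from 827.9 to 1398.9. The 5 pDC markers summed to 92.7, 195.0 and 116.7 CPM, led by *Siglech*, the 6 T cell markers to 58.7 in sGSN-/- and 31.1 in sGSN-/-Clec9a-/-, with WT below both, led by *Cd8b1*, the 7 NK cell markers to 149.5, 205.9 and 197.1, led by *Klrk1*, and the 3 of cycling cells to 118.5, 181.6 and 156.1, led by *Top2a*, with none of these at 0. These 4 sums were highest in sGSN-/-. In the C1qa class the sums were 151.4, 271.8 and 286.0 CPM for cycling cells and 59.3, 102.6 and 79.5 for NK cell markers. T cell markers were at 4.65, 13.0 and 11.4 there, and pDC markers at 6.47, 5.15 and 7.45. In the Ncr1 class pDC markers summed to 20.9, 21.9 and 38.2 CPM and those of cycling cells to 602.7, 644.4 and 492.1. The part of these markers in the *Cebpb* values of the 3 classes was not tested. Genes with at least 50 UMIs over the sGSN-/- and sGSN-/-Clec9a-/- libraries were counted next. At least 2-fold apart in either direction were 1.46% of 10505 in cDC1s, 0.901% of 10876 in the Cd209a class, 0.750% of 10534 in the C1qa class and 1.01% of 9810 in the Ncr1 class. Since the members were chosen by these ratios, nothing is read from where *Cebpb* falls among them. The median ratio of all genes was between -0.08 and -0.03 in the 4 groups.

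**Figure D1:**
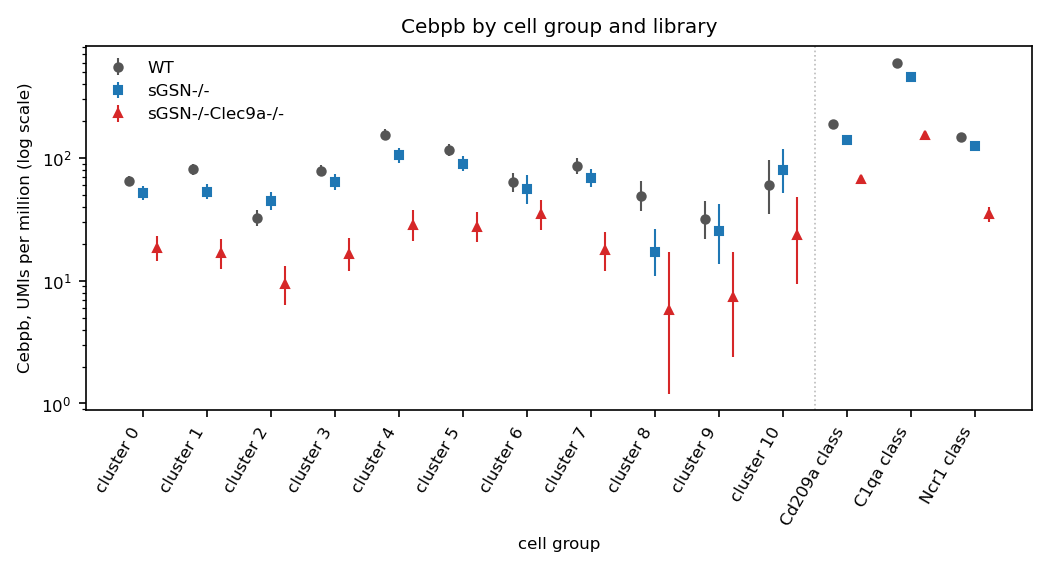
*Cebpb* in CPM (log axis) in cDC1 clusters 0 to 10 and in the 3 classes gated outside the deposited table, with WT (grey circles), sGSN-/- (blue squares) and sGSN-/-Clec9a-/- (red triangles) libraries and exact Poisson 95% intervals. The red triangles are the lowest of the 3 in all 14 groups, at 153.7 in the C1qa class and 5.82 in cluster 8.

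Within the cDC1s, cluster 4, which the study places among early cDC1s, had the highest mean of *Cebpb*, with 155.0 CPM in WT, 105.2 in sGSN-/- and 28.3 in sGSN-/-Clec9a-/- cells. Cluster 9 had the lowest mean, with 31.7, 25.2 and 7.40 CPM. Cluster 8, the *Ccr7* and *Il12b* cluster of activated cDC1s, was next to it with 49.4, 17.3 and 5.82 CPM, the last from 3 UMIs. The ratio of sGSN-/-Clec9a-/- over sGSN-/- was past 2-fold in 13 of the 14 groups, of which the Cd209a class fell short at -0.98 with TMM or median-of-ratios factors. It ranged from -2.26 (-2.87 to -1.70) in cluster 2 to -0.69 (-1.26 to -0.12) in cluster 6, where the 3 libraries gave 63.3, 56.3 and 34.9 CPM. The counting interval excluded 0 in 13 groups and included it in cluster 8 (-1.57, -3.96 to 0.16). Cluster 11, which the study describes as rich in mitochondrial transcripts, was not among the 14 groups, and it held 2, 11 and 1 *Cebpb* UMIs.

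Between sGSN-/- and WT the ratio of *Cebpb* was smaller. It was -0.30 (-0.40 to -0.21) in cDC1s, -0.42 (-0.49 to -0.36) in the Cd209a class, -0.38 (-0.43 to -0.34) in the C1qa class and -0.26 (-0.37 to -0.15) in the Ncr1 class. At least 2-fold apart between these libraries were 1.02% of 10848 genes in cDC1s, 1.51% of 11359 in the Cd209a class, 1.25% of 11016 in the C1qa class and 0.531% of 9972 in the Ncr1 class, and none of the 4 C/EBP genes was among them. *Cebpb* was lower in sGSN-/- than in WT in 12 of the 14 groups and higher in clusters 2 and 10. It was past 2-fold only in cluster 8 (-1.51, -2.30 to -0.77), from 22 UMIs in sGSN-/- and 51 in WT. With the 12 clusters of cDC1s given equal weight its ratio in cDC1s was -0.12, and -0.32 with equal weight for clusters 0 to 10. Cluster 11 held 11 UMIs of it in sGSN-/- and 2 in WT. Both comparisons use the sGSN-/- library. Set directly against WT, a comparison added after the data were seen, sGSN-/-Clec9a-/- cDC1s gave a *Cebpb* ratio of -2.01 (-2.16 to -1.85).

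The share of cells with a *Cebpb* UMI had the library order of the levels in all cDC1s and in the 3 classes, but not in every cluster. After each cell was thinned to 3900 UMIs, 22.1% of WT cDC1s held one (Clopper-Pearson 95% interval 20.4 to 23.9). For sGSN-/- the interval was 18.1 to 22.0, and the sGSN-/-Clec9a-/- share was 7.40% (6.18 to 8.76). Without thinning the shares were 50.1%, 44.7% and 17.3%, at median depths of 14092, 14150 and 12231 UMIs. In the Cd209a class 41.7%, 31.2% and 17.9% of thinned cells held a *Cebpb* UMI, and in the C1qa class 79.7%, 72.0% and 41.1%. The thinned shares of the Ncr1 class were 42.1%, 37.8% and 11.7%, and the unthinned shares 76.0%, 70.8% and 26.8% at median depths of 12272, 10715 and 8760 UMIs. Among clusters 0 to 10, the thinned shares departed from the order of the levels in clusters 6, 8 and 10. Cluster 6 gave 17.1%, 19.4% and 16.5%, with sGSN-/- above WT, and cluster 8 gave 5.71%, 3.57% and 4.55%, from 4, 3 and 2 cells. In cluster 10, where the level was higher in sGSN-/- than in WT, the share was lower, with 5 of 26 cells against 6 of 20. Thinning left out 67 WT, 106 sGSN-/- and 115 sGSN-/-Clec9a-/- cDC1s that were too shallow.

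Free RNA from lysed cells can add UMIs to any droplet, so *Cebpb* was set beside genes that mark the C1qa class. *C1qb* in cDC1s reached 0.504%, 0.265% and 0.411% of its CPM in the C1qa class of the WT, sGSN-/- and sGSN-/-Clec9a-/- libraries. *C1qc* reached 0.405%, 0.231% and 0.308%, *Csf1r* 2.23%, 1.30% and 1.82%, and *Adgre1* 3.33%, 3.56% and 4.04%. *Apoe* was at 33.4, 17.4 and 22.2 CPM in cDC1s and 2639.6, 2527.9 and 2216.8 in the C1qa class. *Lyz2*, which the study also names as expressed by cDC1s of cluster 0, reached 21.7%, 19.1% and 18.7%. *Cebpb* in cDC1s stood at 12.6%, 13.3% and 12.2% of its CPM in the C1qa class. In the Ncr1 class *C1qb* was at 0.554%, 0.468% and 0.343%, and *Cebpb* at 149.3, 124.8 and 34.7 CPM beside 596.2, 457.3 and 153.7 in the C1qa class.

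Whether other genes shared this reach was then counted. With at least 10 UMIs over the sGSN-/- and sGSN-/-Clec9a-/- libraries in each of the 14 groups, 4891 genes could be compared. Only *Clec9a*, the deleted gene, was at least 2-fold lower in all 14, and 0 genes were at least 2-fold higher in all 14. *Cebpb* was chosen for this reach, so nothing is read from its place among these genes. The median over groups of the difference in log2(CPM + 1) was -1.66 for *Cebpb* and -7.07 for *Clec9a*. Other low medians were those of *Ppp1r14b* (-1.17), *Jdp2* (-1.11), which encodes another bZIP factor, *1810026B05Rik* (-1.03) and *Kif2a* (-0.92). *Ppp1r14b* was 2-fold lower in 11 groups, *Jdp2* and *1810026B05Rik* in 9 and *Kif2a* in 6. At the other end stood *Gm42418* (0.87), *AY036118* (0.73), *Lars2* (0.65) and *Neat1* (0.57), each higher in all 14 groups. *Cebpg* (0.02), *Cebpd* (0.16) and *Cebpa* (0.17) were among the same 4891 genes. Between sGSN-/- and WT, 0 of 5093 genes were 2-fold apart in 1 direction in all 14 groups. *Cebpb* had a median of -0.32 there, and the heat shock gene *Hspa1b* -0.87. The highest was *Ccl5* (1.57), higher in sGSN-/- in all 14 groups and past 2-fold in 10. NK cell markers also differed. All 7 were detected in cDC1s, none at 0, with sums of 175.7, 207.6 and 170.7 CPM in WT, sGSN-/- and sGSN-/-Clec9a-/-, led by *Klrk1*, and *Nkg7* was at 2.45, 8.66 and 3.82. Their part in the *Ccl5* values was not tested.

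**Figure D2:**
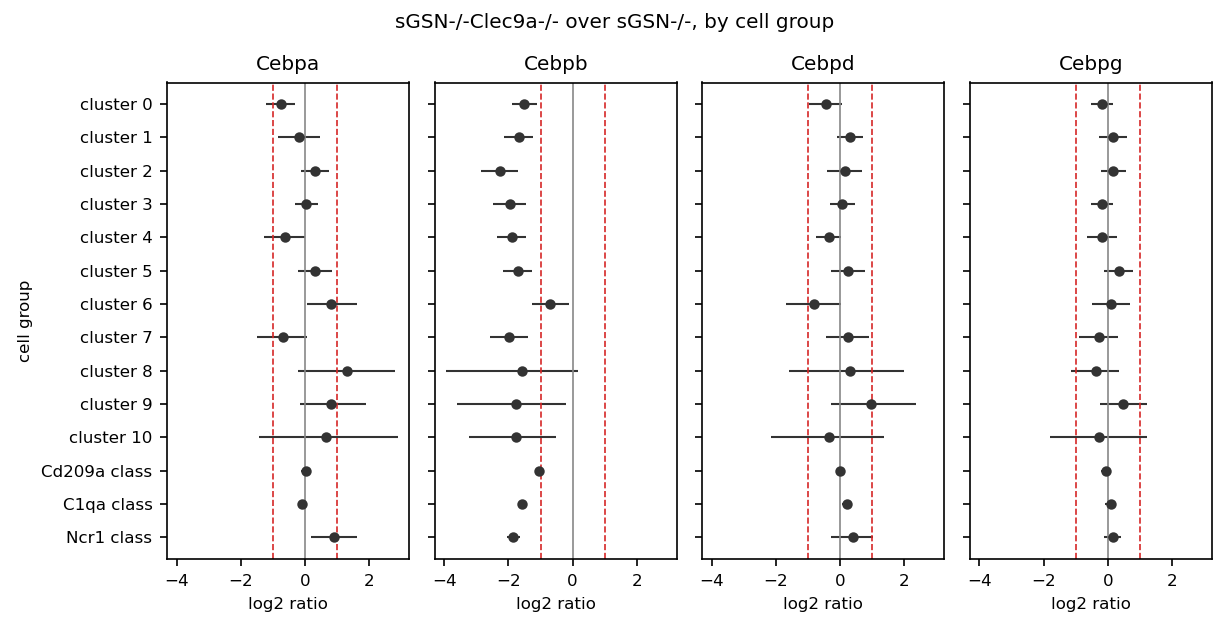
Log2 ratio of sGSN-/-Clec9a-/- over sGSN-/- for the 4 C/EBP genes in the 14 cell groups, with exact 95% intervals for counting error (horizontal bars), 0 (grey line) and 2-fold either way (red dashed lines). *Cebpb* lies past the left dashed line in 13 groups, with -0.69 in cluster 6, and the other 3 genes lie on both sides of 0.

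*Cebpa*, the myeloid lineage factor, was detected at 35.5 CPM (33.5 to 37.6) in WT cDC1s, 25.4 (23.4 to 27.5) in sGSN-/- and 26.2 (24.1 to 28.5) in sGSN-/-Clec9a-/-. The WT library was above the other 2, which overlapped. In the C1qa class it was at 70.9, 71.9 and 68.1 CPM, and in the Cd209a class at 37.0, 35.1 and 36.1, with overlapping intervals among the 3 libraries in both classes. The Ncr1 class held little of it, with 23, 35 and 36 UMIs or 2.69, 3.01 and 5.63 CPM, and after thinning 0.557%, 0.678% and 1.95% of its cells had a UMI, against 11.5%, 8.78% and 8.78% of cDC1s. Among cDC1 clusters *Cebpa* was highest in cluster 3 (75.6, 51.1 and 52.6 CPM), a cluster of resting cDC1s in the study, and lowest in clusters 8 (12.6, 7.08 and 17.5) and 1 (13.3, 13.0 and 11.5). Its ratio of sGSN-/-Clec9a-/- over sGSN-/- was 0.05 (-0.12 to 0.22) in cDC1s, and over the 14 groups it was below 0 in 5 and above 0 in 9. Only in cluster 8 was it past 2-fold (1.30, -0.21 to 2.81, from 9 UMIs in each library). The sGSN-/- over WT ratio was -0.48 (-0.63 to -0.34) in cDC1s, with the lowest value in cluster 6 (-1.31, -2.06 to -0.62).

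*Cebpd*, the inflammation-induced member, was at 31.4 CPM (29.5 to 33.4) in WT cDC1s, 27.7 (25.6 to 29.9) in sGSN-/- and 27.3 (25.2 to 29.6) in sGSN-/-Clec9a-/-. The Cd209a class gave 69.0, 69.2 and 69.7 CPM and the C1qa class 59.8, 49.7 and 57.1. Cells of the Ncr1 class held 40, 50 and 36 UMIs, or 4.67, 4.30 and 5.63 CPM. The libraries were thus within 1 CPM of each other in the Cd209a class, while the Ncr1 class was the lowest group in the order of means. Cluster 4 was the highest of the cDC1 clusters (69.9, 72.0 and 56.1 CPM), as for *Cebpb*, and cluster 8 the lowest (4.84, 7.87 and 9.70). The ratio of sGSN-/-Clec9a-/- over sGSN-/- was -0.02 (-0.18 to 0.15) in cDC1s and 0.01 (-0.10 to 0.12) in the Cd209a class, and no group was past 2-fold.

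*Cebpg*, the member without an activation domain, was at 44.2 CPM (41.9 to 46.5) in WT cDC1s, 38.1 (35.6 to 40.6) in sGSN-/- and 38.0 (35.4 to 40.7) in sGSN-/-Clec9a-/-. The C1qa class gave 44.5, 45.6 and 48.4 CPM, the Cd209a class 40.1, 37.7 and 36.6, and the Ncr1 class 30.8, 24.8 and 27.5. In the order of means, cluster 9 came first (46.1, 48.7 and 68.1 CPM) and the Ncr1 class last, and no neighbours in that order differed by more than their SDs over the 3 libraries. Its ratio of sGSN-/-Clec9a-/- over sGSN-/- was 0.00 (-0.14 to 0.13) in cDC1s, with 7 groups below and 7 above 0 and no group past 2-fold.

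**Figure D3:**
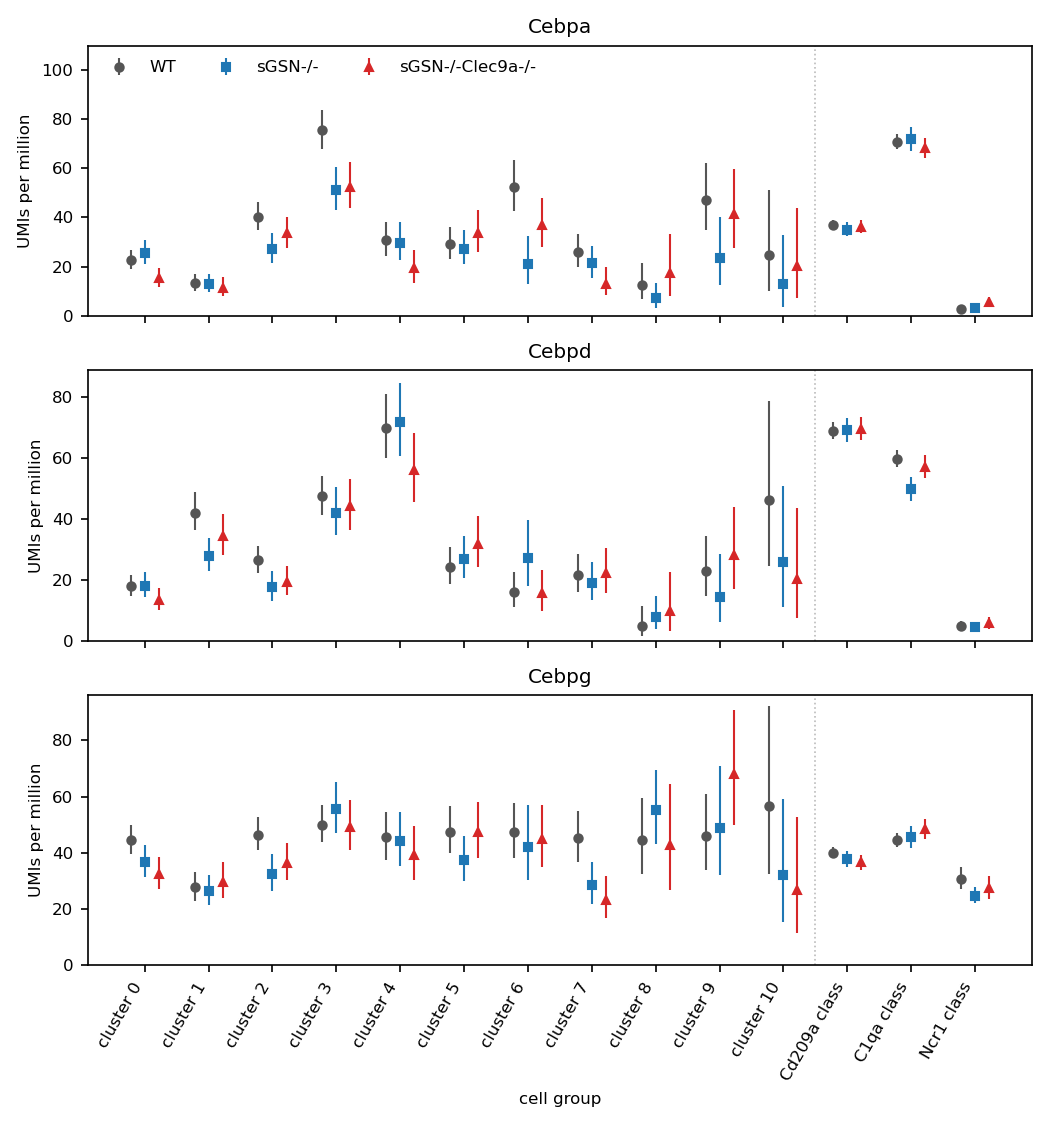
*Cebpa*, *Cebpd* and *Cebpg* in CPM in cDC1 clusters 0 to 10 and the 3 gated classes, with symbols and intervals as in the plot of *Cebpb*. *Cebpa* and *Cebpd* are near the axis in the Ncr1 class, at 2.69 to 5.63, and *Cebpg* is not.

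The order of the levels over cell groups differed between the genes, as means of the 3 libraries, whose SD also contains any genotype difference. For *Cebpa* the C1qa class (70.3 ± 1.94 CPM, n = 3) and cluster 3 (59.8 ± 13.7) came first, and the SDs of all neighbours overlapped except for the last step, from cluster 8 (12.4 ± 5.19) to the Ncr1 class (3.78 ± 1.62). For *Cebpd* the Cd209a class (69.3 ± 0.367) overlapped with cluster 4 (66.0 ± 8.64), and cluster 4 with the C1qa class (55.5 ± 5.21), while the SDs of the 2 classes did not meet. The C1qa class stood apart from the next, cluster 3 (44.5 ± 2.72). A second gap lay between cluster 0 (16.4 ± 2.71) and cluster 8 (7.47 ± 2.45). For *Cebpb* the C1qa class had the highest mean (402.4 ± 226.3), but with the library difference in the SD no neighbours were separated.

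Between the gated classes the 4 genes are compared without a test, because their counts in these classes were part of their choice. *Cebpa* had a mean of 70.3 ± 1.94 CPM (SD, n = 3 libraries) in the C1qa class and 36.1 ± 0.916 in the Cd209a class, and was higher in the C1qa class in 3 of 3 libraries. The means of *Cebpb* were 402.4 ± 226.3 and 132.9 ± 61.1, in the same direction in 3 of 3. *Cebpg* was at 46.2 ± 2.03 and 38.1 ± 1.81 CPM, again higher in the C1qa class in 3 of 3. *Cebpd* had the other direction in 3 of 3 libraries, with 55.5 ± 5.21 CPM in the C1qa class and 69.3 ± 0.367 in the Cd209a class. All 4 genes were lower in the Ncr1 class than in the Cd209a class in 3 of 3 libraries, *Cebpa* at 3.78 ± 1.62 CPM, *Cebpd* at 4.87 ± 0.689 and *Cebpb* at 103.0 ± 60.3.

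Other genes were tested between the classes over the 3 libraries. Of 12224 genes, 19.6% were higher and 19.0% lower in the C1qa than in the Cd209a class at an adjusted p below 0.05 (quasi-likelihood test of edgeR, Benjamini-Hochberg). These shares depended on the libraries used. They stand for 2399 genes higher and 2322 lower, against 1553 and 1505 of 12624 without the sGSN-/- library. Of 12126 genes, 34.8% were higher and 35.5% lower in the Ncr1 than in the Cd209a class. This near balance depended on the scaling, since with library size alone 41.9% were higher and 30.5% lower in the Ncr1 class. A gene can also enter such a test through the class where it is high, and then had to differ. The list genes below are therefore counted among those past the CPM limit of the filter in every library of both classes, a restriction added after the data were seen. Of such genes, 19.4% of 11223 were higher and 18.8% lower in the C1qa class, and 34.6% of 10496 were higher and 34.1% lower in the Ncr1 class.

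The other genes of the pathway were taken from lists. Of 11 other C/EBP family members and bZIP partners, 10 had at least 50 UMIs in cDC1s, and 0 were 2-fold apart in either library comparison, there or in the 3 classes, where 0.531% to 1.51% of all genes were, so a count of 0 among so few says little about them. *Jdp2*, the bZIP gene 2-fold lower in 9 groups, was not on this list. Their median ratio of sGSN-/-Clec9a-/- over sGSN-/- was -0.05 in cDC1s, beside -0.07 over all genes. *Cebpz*, which encodes a CCAAT-binding protein, was at means of 123.6 CPM in the C1qa class and 152.8 in the Cd209a class. Between these classes, where 19.4% of genes past the limit in both were higher and 18.8% lower, 1 of the 11 was higher in the C1qa class, *Nfil3* (log2 fold change 0.46, SE 0.05, adjusted p = 1.4e-04, edgeR), and 6 were lower, with *Batf* (-0.87, SE 0.08, adjusted p = 4.8e-05) among them. The Ncr1 class had 7 of 9 lower than the Cd209a class and 0 higher (34.1% and 34.6%), without *Cebpe* and *Batf2*, which passed in the Cd209a class alone. *Atf3* was at means of 152.9 CPM in the Ncr1 class and 1096.4 in the Cd209a class.

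Of 16 receptors and kinases that act upstream of C/EBP factors, 14 had at least 50 UMIs in cDC1s and 0 were 2-fold apart in either comparison in any of the 4 groups, beside the same 0.531% to 1.51% of all genes. Their median ratio of sGSN-/-Clec9a-/- over sGSN-/- was -0.01 in cDC1s and 0.04 in the C1qa class. *Csf1r*, the receptor for macrophage colony-stimulating factor, was higher in the C1qa than in the Cd209a class by 1.56 (SE 0.07, adjusted p = 4.8e-07, edgeR), one of 5 higher and 4 lower among the 15 past the limit in both (19.4% and 18.8% of such genes), and *Myd88*, the adaptor of Toll-like receptors, was lower (-0.54, SE 0.06, adjusted p = 1.2e-04). *Il1r1* passed in the Cd209a class alone in both comparisons. The Ncr1 class had 10 of 14 lower than the Cd209a class and 2 higher (34.1% and 34.6%), the latter being *Jak1* (1.31, SE 0.06, adjusted p = 2.7e-08) and *Ifngr1* (0.23, SE 0.07, adjusted p = 0.015). Of 8 genes whose products limit C/EBP factors or their output, 6 had at least 50 UMIs in cDC1s and 0 were 2-fold apart there, beside 1.46% of all genes for sGSN-/-Clec9a-/- over sGSN-/- and 1.02% for sGSN-/- over WT. *Trib1*, a pseudokinase that directs C/EBPα to degradation, was at 134.4 CPM in the C1qa class, 154.5 in the Cd209a class and 22.3 in the Ncr1 class. Against the Cd209a class 1 of 6 limiters past the limit in both was higher and 1 lower in the C1qa class, and 1 of 6 was higher and 5 lower in the Ncr1 class, beside the same shares. *Trib2*, which passed in the Ncr1 class alone, and *Trib3* are not counted.

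Of 23 known C/EBP target genes of myeloid cells, 11 had at least 50 UMIs in cDC1s of the sGSN-/- and sGSN-/-Clec9a-/- libraries. Their median ratio was 0.16 in cDC1s, 0.13 in the Cd209a class, -0.18 in the C1qa class and 0.04 in the Ncr1 class, beside -0.07, -0.07, -0.03 and -0.08 over all genes. In cDC1s 2 of the 11 were 2-fold lower and 0 higher in sGSN-/-Clec9a-/-, where 1.46% of all genes were 2-fold apart. The Cd209a class had 1 lower and 2 higher of 12 (0.901% of all genes), the C1qa class 2 lower and 0 higher of 15 (0.750%), and the Ncr1 class 1 lower and 0 higher of 9 (1.01%). Between sGSN-/- and WT 0 targets were 2-fold lower in these groups. The higher ones were 1 of 11 in cDC1s (1.02% of all genes apart) and 2 of 13 in the Cd209a class (1.51%). The C1qa class had 2 of 15 higher (1.25%) and the Ncr1 class 0 of 9 (0.531%). *Il12b*, the p40 subunit of IL-12, was at 124.3 CPM in sGSN-/- and 34.9 in sGSN-/-Clec9a-/- cDC1s, a log2 ratio of -1.83 (-1.95 to -1.72). *Ccl5*, a T cell-attracting chemokine, was at 203.2 and 61.1 CPM (-1.73, -1.82 to -1.65), and it was also 2-fold apart between sGSN-/- and WT (99.6 CPM in WT, 1.03, 0.96 to 1.09, beside 1.02% of all genes). With equal weight for the 12 clusters that ratio was 0.29, and 0.26 for clusters 0 to 10, short of 2-fold. With the same weights the ratios of sGSN-/-Clec9a-/- over sGSN-/- became -0.89 for *Il12b* and -0.82 for *Ccl5*, while that of *Cebpb* was -1.73. Cluster 8 held 84 WT, 114 sGSN-/- and 57 sGSN-/-Clec9a-/- cells. Within it, *Il12b* was at 2433.7, 2086.7 and 1047.9 CPM in the same order, and *Ccl5* at 2959.7, 3383.2 and 1866.8. The parts of cell numbers and of levels within clusters in these ratios were not tested. Between classes 8 of the 12 targets past the limit in both were higher in the C1qa class than in the Cd209a class and 0 were lower (19.4% and 18.8% of such genes), with a median log2 fold change of 1.90 beside 0.01. *Il10*, *Nos2* and *Chil3* passed in the C1qa class alone and are not counted. *Cd14* (1.90, SE 0.06, adjusted p = 1.2e-07) and *Cxcl2* (2.02, SE 0.12, adjusted p = 2.5e-06) were among them in the edgeR test. The Ncr1 class had 8 of 11 lower than the Cd209a class and 1 higher (34.1% and 34.6%), *Ccl5*, at means of 1978.3 against 83.9 CPM. *Il6* passed in the Cd209a class alone.

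Genes that tell of RNA quality also differed between the libraries. *Gm42418* was at 11543, 13541 and 23742 CPM in the C1qa class of the WT, sGSN-/- and sGSN-/-Clec9a-/- libraries, and at 8486.6, 8757.3 and 19041 in the Ncr1 class. *Neat1*, a nuclear RNA, was at 248.9, 221.9 and 346.9 CPM in cDC1s. *Malat1*, another nuclear RNA, went the other way there, with 28801, 27200 and 25447 CPM. Of the 9 single genes on this list, 0 were 2-fold apart between sGSN-/-Clec9a-/- and sGSN-/- in cDC1s (1.46% of all genes) and 2 in the Ncr1 class (1.01%), and *Hspa1b* was 2-fold apart between sGSN-/- and WT cDC1s (1.02% of all genes), at 511.2 and 247.1 CPM in WT and sGSN-/-. With equal weight for the 12 clusters the *Hspa1b* ratio was -0.88, and -0.91 for clusters 0 to 10, short of 2-fold. The part of RNA quality in the *Cebpb* difference was not tested. Without *Gm42418*, *AY036118*, *Lars2*, *Malat1*, *Neat1* and the mitochondrial genes in the totals, a setting added after the data were seen, the *Cebpb* ratio in cDC1s was -1.69.

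The 4 genes were then compared by position and sequence in the GRCm38 annotation (GENCODE). *Cebpb* (ENSMUSG00000056501) lies on chromosome 2, 167688915 to 167690418, plus strand, as a single exon of 1504 bases with 67.2% GC and a coding region from 167689022 to 167689909. *Cebpa* (ENSMUSG00000034957, chromosome 7, 35119293 to 35121928, plus strand) and *Cebpd* (ENSMUSG00000071637, chromosome 16, 15887286 to 15891031, plus strand) also have 1 exon, with 62.6% and 51.6% GC. *Cebpg* (ENSMUSG00000056216, chromosome 7, 35046422 to 35056573, minus strand) has 2 exons and 43.3% GC. The ratios of sGSN-/-Clec9a-/- over sGSN-/- in cDC1s were 0.05 for *Cebpa*, -1.70 for *Cebpb*, -0.02 for *Cebpd* and 0.00 for *Cebpg*. A part of gene structure in these ratios was not tested. Over all genes with at least 50 UMIs in cDC1s, the median ratio of sGSN-/-Clec9a-/- over sGSN-/- was -0.05 for 417 genes of 1 exon and -0.07 for 10079 genes of more, and it went from -0.10 among the genes of 31.9% to 44.0% GC to -0.04 among those of 55.5% to 74.2%. The share of genes 2-fold lower was 1.68% with 1 exon and 1.28% with more in cDC1s, 1.17% and 0.546% in the Cd209a class, 1.10% and 0.492% in the C1qa class and 1.22% and 0.728% in the Ncr1 class, from 7, 5, 4 and 4 genes of 1 exon. *Cebpb*, which was chosen by its counts, is among these few genes in every group, so nothing is read from the shares.

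*Cebpb* overlaps *Tmem189* (167642608 to 167689822) on the opposite strand, and the sources at hand do not say whether the counting used strand, so UMIs of the 2 genes may not be told apart where they overlap. *Tmem189* had a ratio of sGSN-/-Clec9a-/- over sGSN-/- of -0.03 (-0.16 to 0.10) in cDC1s and 0.21 (0.11 to 0.32) in the C1qa class. *Cebpa* overlaps *Gm45091* and *Cebpd* overlaps *Spidr*, both on the opposite strand. *Cebpg* overlaps *Gm44836* and *Gm45094* on its own strand and *Gm45095* on the opposite strand. Within 500 kb of *Cebpb*, 8 other genes had at least 50 UMIs in cDC1s of these libraries, with ratios from -0.31 to 0.12. Of these, 0 were 2-fold apart, beside 1.46% of all genes, so a count of 0 among so few says little about them. The 9 such genes of the Ncr1 class ran from -0.45 to 0.22.

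The genes most like each member were sought among 6829 genes with a mean of at least 10 CPM. Over the 14 groups, as means of the 3 libraries, the genes most like *Cebpa* included *Rab31* (Pearson r = 0.897), *Il13ra1*, *Nfam1* and *Fcgr2b*, and those most like *Cebpd* included *Aldh2* (0.903), *Pitpna*, *Vamp4* and *Tpd52*. *Cebpb* was most like *Lrpap1* (0.900), *Pkm*, *Lair1*, *Gtf2h2* and *Rxylt1*, and *Cebpg* most like *Mcl1* (0.835), *Xylt1*, *Tubb6*, *Arl13b* and *Furin*. Among the members themselves the highest value was that of *Cebpa* with *Cebpd* (0.718). Over the 42 deviations of a library from the mean of its cell group, *Cebpb* was most like *Ube2m* (0.941), *1810026B05Rik* (0.939), *Hnrnpd* (0.930), *Basp1* (0.921) and *Kif2a* (0.919). *Basp1* had means over groups of 335.5, 287.3 and 169.0 CPM in the WT, sGSN-/- and sGSN-/-Clec9a-/- libraries, and *Hnrnpd*, an RNA-binding protein gene, 186.0, 193.7 and 118.3. The same measure was no higher than 0.678 for *Cebpa*, which was most like *Shtn1*, *Adpgk*, *Unc93b1*, *Phf12* and *Pid1*. It was 0.730 for *Cebpd* with *Bag5*, followed by *Mia3*, *Bmpr2*, *Mtrex* and *Mrpl27*, and 0.748 for *Cebpg* with *Cpsf7*, followed by *Heca*, *Rnf216*, *Usf1* and *Get4*. *Cebpb* itself had values of 0.066 with *Cebpa*, -0.096 with *Cebpd* and 0.182 with *Cebpg*. The points share 3 libraries and their depths, so these values describe the data and carry no test.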

How the data were processed

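The authors deposited counts of UMIs for 3 libraries, made with Cell Ranger 6.0.1 per the file headers, and a table that names cDC1 barcodes, clusters and UMIs, made with Seurat, as version 4.0.0 in the submitters' processing notes and version 3 (in R 4.0.0) in the study's methods. Barcodes outside the table with fewer than 200 genes or a mitochondrial share above 17.5% (mean plus 2 SD) were left out, 1265 of 24403. No doublet caller was run. Counts were summed per library and cell group and scaled to CPM. Genes other than the members were tested between classes with edgeR 4.0.16 in R 4.3.3 (TMM, filterByExpr, 3 libraries as replicates), and DESeq2 1.42.0 was the alternative. Other values were computed with Python 3.11.15, numpy 2.4.6, scipy 1.17.1 and pandas 2.3.3. The 2 classes of a library come from 1 pool, and their deviations correlated at 0.427, 0.209 and 0.289 (C1qa and Cd209a) and 0.136, 0.132 and 0.187 (Ncr1 and Cd209a). Genes named were the members, list genes 2-fold apart in cDC1s with up to 4 per list for level (picked after the data were seen), up to 5 of the most alike per member and, as only *Clec9a* met the rule for all groups, the largest medians over groups. The members and lists were chosen with earlier results of these data known. *Ddit3*, whose symbol 2 genes share, was left out of its list.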

Additional observations from a re-analysis of the deposited data

Results flagged for a closer look

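*Cebpa* and *Cebpb* each had library differences of opposite direction in different cell groups, with counting intervals that exclude 0. These differences rest on 1 library per genotype and were not tested. For *Cebpa*, the log2 ratio of sGSN-/-Clec9a-/- over sGSN-/- was -0.75 (-1.22 to -0.30) in cluster 0, 0.81 (0.06 to 1.61) in cluster 6 and 0.90 (0.19 to 1.62) in the Ncr1 class, where it rested on 36 and 35 UMIs. The Ncr1 value was 0.13 with a gate of 6 UMIs and 1.66 with thinned cells. For *Cebpb*, the ratio of sGSN-/- over WT was 0.47 (0.13 to 0.81) in cluster 2. It was below 0 in clusters 0 (-0.32), 1 (-0.61), 3 (-0.30), 4 (-0.56), 5 (-0.36), 7 (-0.32) and 8 (-1.51), and in the Cd209a (-0.42), C1qa (-0.38) and Ncr1 (-0.26) classes.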

How the results depend on the processing

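A ratio between libraries is said to have moved where it left the 95% counting interval of its reported value. Of the alternatives, 6 were added after the data were seen, and none of these moved a result. The direction of the *Cebpb* difference between sGSN-/-Clec9a-/- and sGSN-/- held in all settings, with ranges of -1.73 to -1.63 in cDC1s, -1.16 to -0.92 in the Cd209a class, -1.58 to -1.50 in the C1qa class and -2.09 to -1.76 in the Ncr1 class. It moved in the Cd209a class with a gate of 1 UMI (-1.16) or 6 UMIs (-0.92, short of 2-fold as was -0.98 with TMM or median-of-ratios factors), and with thinned cells in the C1qa (-1.50) and Ncr1 (-2.09) classes. For sGSN-/- over WT, *Cebpb* moved with the 12 clusters weighted equally to -0.12 (-0.32 without cluster 11, where 11 and 2 UMIs were counted), in the Cd209a class to -0.53 when thinned and -0.55 at 6 UMIs, and in the C1qa class to -0.43 when thinned. *Cebpg* moved for sGSN-/- over WT to -0.35 with the 12 clusters weighted equally (-0.19 without cluster 11, where 2 and 4 UMIs were counted) and to -0.20 in the thinned C1qa class, and for the other comparison to 0.27 in that class. *Cebpa* in the Ncr1 class moved to 1.08 (sGSN-/- over WT) and 0.13 (sGSN-/-Clec9a-/- over sGSN-/-) at 6 UMIs, and to 1.66 in the latter when thinned. *Cebpd* stayed within its interval in all settings, but in the Ncr1 class, with 40 and 50 UMIs, its sGSN-/- over WT ratio of -0.12 (-0.75 to 0.52) changed sign, to 0.44 with a gate of 1 UMI and 0.04 at 6 UMIs. Other ratios of *Cebpa*, *Cebpd* and *Cebpg* whose intervals include 0 also changed sign in some settings. The cause of these moves was not tested.

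Between the C1qa and Cd209a classes, leaving out 1 library gave 1553 to 1960 genes higher and 1505 to 1967 lower, and log2 fold changes of 1.52 to 1.67 for *Cebpb* and 0.21 to 0.34 for *Cebpg*. Leaving out the sGSN-/- library, the one that moved the counts most, gave the lowest counts. In the Ncr1 class against the Cd209a class, *Cebpb* was at -0.63 to -0.43 over the libraries left out, and at -0.56 with the library as replicate block. These values of the members are given without a test. The block changed the counts of genes by less than 1.5 times, to 3059 higher and 3055 lower for the C1qa class and 4349 and 4409 for the Ncr1 class. With library size alone in place of TMM, 5080 genes were higher and 3694 lower in the Ncr1 class, against 4221 and 4299. Where 1 library was left out, 2 libraries per class remained.

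Counts of genes apart between libraries depend on the limit. At 1.5-fold, sGSN-/- and WT differed in 438 genes in cDC1s, 573 in the Cd209a class, 534 in the C1qa class and 322 in the Ncr1 class, against 111, 171, 138 and 53 at 2-fold, and sGSN-/-Clec9a-/- and sGSN-/- in 487, 533, 355 and 572, against 153, 98, 79 and 99. With at least 200 UMIs the counts were 24, 48, 38 and 12, and 50, 28, 16 and 14. With at least 20 UMIs in every group, 1 gene was again 2-fold lower in all 14. Small counts limit clusters 8 to 11, where a member's level can rest on under 10 UMIs. Cluster 9 had only 67 WT, 40 sGSN-/- and 55 sGSN-/-Clec9a-/- cells, at median depths of 15084, 15456 and 12399 UMIs. Cluster 6 had more cells but was shallower, at 9374, 7237 and 8288.5 UMIs.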
